A study of Mus musculus with 22 samples.

Results

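The 29 genes described here encode the enzymes that build cholesterol and long-chain fatty acids, together with 4 genes that regulate these pathways or carry sterol. They were chosen by gene symbol from their known function, with earlier results of these data known. All 29 were found among the 55052 genes of the deposited mouse embryonic stem (mES) cell and endoderm tables. They were also found among the 55138 genes of the gastruloid tables. They fall into 7 genes of the mevalonate arm, 12 of the sterol arm, 4 of regulation and transport, and 6 of the fatty acid arm. Each gene was counted in 22 RNA-seq libraries of 10 groups.

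Wild-type (wt) cells and Hox-/- cells, said in the study's title to lack all Hox function, were compared. The mES cells (2 libraries per genotype) were kept in medium with 10% FBS, 100 ng/ml LIF, CHIR99021 (3 µM), which blocks GSK-3, and PD0325901 (1 µM), which blocks MEK. Endoderm cultures (3 libraries per genotype) were grown without LIF in medium with 0.2% FBS and a B27 supplement, and received 100 ng/ml Activin A with 3 µM CHIR99021 from 24 h, with a second dose at 72 h and collection at 120 h. Gastruloids, which are aggregates of mES cells, were of 2 kinds, Activin A (both genotypes) and Chiron (wild type only), and were collected at 96 h and 120 h (2 libraries per group). The labels give neither gastruloid doses nor how many clones each genotype rests on, so an effect of Hox loss and one of the cell line cannot be told apart. They do not say whether replicates came from separate cultures, so p-values measure the spread between these libraries only. Endoderm cultures and gastruloids are labelled as mixed cells, and in such bulk samples fewer cells of a type and less RNA per cell cannot be told apart.

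Cholesterol is made from acetyl-CoA. The mevalonate arm joins acetyl groups into isoprenoid units and farnesyl diphosphate, and the sterol arm turns farnesyl diphosphate into squalene, lanosterol and cholesterol. The transcription factor SREBP-2, from Srebf2, drives most of these genes when membrane sterol is low, while SREBP-1, from Srebf1, is best known for the fatty acid genes. INSIG1 holds SREBP in the endoplasmic reticulum when sterol is high, and Insig1 is itself an SREBP target. Serum lipoproteins supply cholesterol to cultured cells. Cholesterol is also attached to Hedgehog proteins during their maturation in the embryo.

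SREBP binds sterol regulatory elements in promoters, usually beside sites for NF-Y, which reads the CCAAT box, and for Sp1, which reads the GC box. RefSeq promoters (GRCm38.p6, the same build as mm10) were matched for 23 of the 29 genes, and the 250 bases before each start site were searched on both strands. The letters CCAAT were present in 19 of the 23 genes (82.6%), against 37.5% of all 27025 genes with a promoter and 39.5% of the 17492 protein-coding ones. GGGCGG was present in 19 of 23 (82.6%), against 35.4% of all genes and 45.8% of protein-coding genes. TCACNCCAC, a form of the sterol regulatory element, was found in Hmgcs1 alone (4.35%), against 1.22% of all genes. CACCCCA, which is part of that form when its N is C, was found in Acat2, Hmgcs1 and Srebf2, against 7.64% of all genes. These matches describe letters in these windows and are not evidence of binding. The promoters of 6 genes are shown because their genes carry the comparisons that follow: Hmgcs1 and Ebp, an early and a late enzyme of cholesterol synthesis, Insig1 and Srebf2, which regulate it, and Fasn and Acly, which supply fatty acids. They are given 5′ to 3′ on the gene's own strand, up to the outermost annotated start of the gene, with CCAAT on either strand and matches to the sterol element letters in capitals.
Hmgcs1, chr13:119690101-119690350, plus strand: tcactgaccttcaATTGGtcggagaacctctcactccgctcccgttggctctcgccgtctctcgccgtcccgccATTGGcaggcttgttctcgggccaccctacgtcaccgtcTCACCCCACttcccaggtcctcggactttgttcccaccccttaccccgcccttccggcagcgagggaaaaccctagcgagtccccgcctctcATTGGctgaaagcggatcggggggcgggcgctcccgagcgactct
Ebp, chrX:8193513-8193762, minus strand: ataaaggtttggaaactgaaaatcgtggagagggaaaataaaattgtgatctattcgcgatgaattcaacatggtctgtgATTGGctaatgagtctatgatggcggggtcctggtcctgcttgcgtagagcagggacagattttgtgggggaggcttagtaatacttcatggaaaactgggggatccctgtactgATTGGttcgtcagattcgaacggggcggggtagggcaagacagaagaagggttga
Insig1, chr5:28071162-28071362, plus strand: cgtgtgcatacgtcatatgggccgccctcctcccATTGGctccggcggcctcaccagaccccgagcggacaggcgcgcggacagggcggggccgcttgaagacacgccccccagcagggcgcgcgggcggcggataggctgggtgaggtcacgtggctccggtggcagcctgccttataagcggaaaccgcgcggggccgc
Srebf2, chr15:82147019-82147180, plus strand: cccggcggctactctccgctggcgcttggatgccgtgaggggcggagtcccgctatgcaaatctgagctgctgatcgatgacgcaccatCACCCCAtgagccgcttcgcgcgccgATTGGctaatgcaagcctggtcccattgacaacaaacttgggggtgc
Fasn, chr11:120824548-120824797, minus strand: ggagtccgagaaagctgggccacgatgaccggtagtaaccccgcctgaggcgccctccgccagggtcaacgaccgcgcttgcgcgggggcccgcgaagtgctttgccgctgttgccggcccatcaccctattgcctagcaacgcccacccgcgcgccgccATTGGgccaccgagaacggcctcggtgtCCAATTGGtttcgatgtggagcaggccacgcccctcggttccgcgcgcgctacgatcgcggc
Acly, chr11:100528001-100528250, minus strand: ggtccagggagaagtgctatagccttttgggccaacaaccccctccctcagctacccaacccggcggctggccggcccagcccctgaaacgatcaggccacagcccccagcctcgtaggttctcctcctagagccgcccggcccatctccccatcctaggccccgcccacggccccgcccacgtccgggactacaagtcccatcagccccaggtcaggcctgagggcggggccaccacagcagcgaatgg
The Hmgcs1 sequence holds the sterol element form at base -137 from the RefSeq start site and CCAAT at bases -237, -176 and -45. The Srebf2 sequence shown stops where the gene model begins, 88 bases before the RefSeq start site. Counted from the RefSeq start site, its shorter form begins at base -161 and CCAAT at base -135. Acly has no CCAAT in this window and 4 copies of GGGCGG, and Fasn has 3 copies of CCAAT, of which 2 overlap, and no GGGCGG.

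Libraries held 9.11 to 28.8 M (mega) counts, and the 120 h gastruloid libraries were shallower than those at 96 h, so time and depth go together there. The 39 Hox genes summed to 30.4 to 35.7 CPM (counts scaled to a common library total) in wild-type mES cells and 0.448 to 1.34 in Hox-/- ones, to 828 to 877 against 22.5 to 28.6 in endoderm cultures, to 625 to 660 against 102 to 104 in Activin A gastruloids at 96 h, and to 1167 to 1190 against 63.8 to 69.5 at 120 h. A list of 6 pluripotency markers summed to 5306 to 5515 CPM in mES cells. The 6 definitive endoderm markers summed to 250 to 278 CPM in wild-type and 118 to 134 CPM in Hox-/- endoderm cultures, where Sox17 (24.5 and 4.89 CPM), Foxa2 (18.6 and 4.18 CPM) and Cer1 (1.11 and 0.221 CPM) were low.

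All 29 genes were expressed in every library. The lowest count was 186, for Tm7sf2, and the highest was 79028. Per transcript length, the deposited FPKM values ran from 4.03 to 638. Scd2, a stearoyl-CoA desaturase prominent in the brain, had the highest FPKM of the 29 genes in every group, with group means of 245 to 625. Hmgcs1 and Fdps, which make HMG-CoA and farnesyl diphosphate, had group means of 126 to 234 and 112 to 227 FPKM, while Hsd17b7, a keto reductase of the sterol arm, ran from 4.12 to 31.6. Levels were close between replicates: the median coefficient of variation of CPM within a group was 2.56%. The highest group mean exceeded the lowest by 1.43-fold for Sqle, the squalene epoxidase, and by 10.4-fold for Hsd17b7, with a median of 2.16-fold over the 29 genes.

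Summed over the 19 mevalonate and sterol enzymes, mean CPM was lowest in wild-type mES cells (1827) and highest in wild-type Activin A gastruloids at 96 h (3474). The other groups lay at 1967 in Hox-/- mES cells, 2219 and 2550 in Chiron gastruloids at 96 h and 120 h, 2747 and 3199 in wild-type and Hox-/- endoderm cultures, and 3040, 3151 and 3280 in the remaining Activin A groups. The 6 fatty acid genes followed another order. Their sum was highest in Activin A gastruloids at 96 h (4857 in wild type and 4927 in Hox-/-) and lowest in wild-type gastruloids at 120 h (3015 in Chiron and 3175 in Activin A), below the 3590 of wild-type mES cells. Scd2 gave the largest part of this sum in every library but not its whole order. Mean Scd2 was 1306 CPM in wild-type mES cells and 1689 and 1667 in wild-type Activin A and Chiron gastruloids at 120 h, while Acly stood at 835 against 524 and 465 CPM and Fasn at 816 against 449 and 456.

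**Figure D1:**
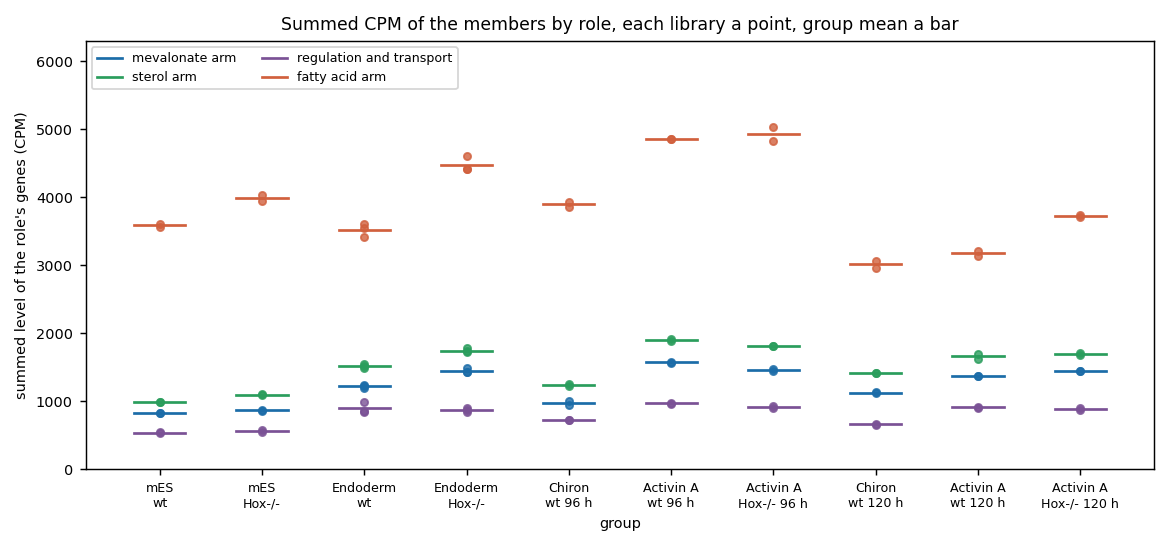
Summed CPM (vertical axis) of the genes of each role in the 10 groups (horizontal axis), with each library as a point and the group mean as a bar. The mevalonate and sterol arms are lowest in mES cells and highest in wild-type Activin A gastruloids at 96 h, while the fatty acid arm lies below its mES level in wild-type gastruloids at 120 h.

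The first comparison asks how Activin A gastruloids differ from Chiron gastruloids of the same genotype and age. At 96 h, 25 of the 29 genes were higher in Activin A gastruloids and 3 were lower, by edgeR's quasi-likelihood test with a Benjamini-Hochberg adjusted p under 0.05 over all genes. Over all 17305 genes tested, 61.6% were called, 31.3% higher and 30.2% lower, so a call in itself was common, and the direction of the 29 genes was not evenly split as it was over all genes. The median log2 fold change was 0.44, against -0.00 over all genes. Here and below, the genes behind such shares were not matched to the 29 genes in expression level. All 7 mevalonate genes and 11 of the 12 sterol genes rose, and all 4 genes of regulation and transport did. No change reached 2-fold, while 19.7% of all genes were called with a change of at least 2-fold.

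The largest rise was in Msmo1, a methyl oxidase that removes the C4 methyl groups of lanosterol-derived sterols. Its CPM was 124 and 113 in the Chiron libraries and 223 and 229 in the Activin A libraries at 96 h, a log2 fold change of 0.87 ± 0.05 (SE, adjusted p = 3.62e-13). Ebp, the sterol isomerase, was at 30.7 and 33.8 CPM against 59.5 and 58.7, a log2 fold change of 0.81 ± 0.07 (adjusted p = 1.98e-10). For both genes the 2 groups lay well apart. Hmgcs1 stood at 515 and 460 CPM in Chiron gastruloids and at 846 and 852 in Activin A gastruloids, 0.74 ± 0.05 on the log2 scale. Tm7sf2, a sterol C14 reductase, rose by 0.76 ± 0.07, and Pmvk, the phosphomevalonate kinase, by 0.72 ± 0.06. The rises were 0.70 for Fdps, 0.68 for Idi1, the isomerase of the isoprenoid units, 0.68 for Cyp51, the lanosterol demethylase, 0.66 for Hsd17b7 and 0.64 for Fdft1, the squalene synthase. Smaller rises of 0.53 to 0.22 were seen for Lss, the lanosterol synthase, Mvk, Sqle, Nsdhl, Lbr, Mvd, Dhcr7 and Acat2. Sc5d, the lathosterol desaturase, had 62.4 and 53.7 CPM against 65.1 and 65.6 (0.11 ± 0.07, adjusted p = 0.133).

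The regulators rose less than most enzymes. Srebf2 was at 338 and 331 CPM in Chiron and 415 and 401 in Activin A gastruloids at 96 h (log2 0.22 ± 0.05). Srebf1 was at 147 and 155 against 192 and 195 CPM (0.29 ± 0.05). Insig1 was at 167 and 165 against 231 and 237 CPM (0.43 ± 0.05). In each of these 3 genes both Activin A libraries lay above both Chiron libraries. Stard4, which carries cholesterol between membranes, rose by 0.72 ± 0.05. The fatty acid arm was divided. Acly, which makes cytosolic acetyl-CoA, had 736 and 744 CPM in Chiron and 686 and 690 in Activin A gastruloids and fell by 0.17 on the log2 scale. Acaca, the acetyl-CoA carboxylase, fell by 0.25 and Fasn, the fatty acid synthase, by 0.21. The desaturases and the elongase moved the other way: Scd2 rose from 2129 and 2084 to 3069 and 3062 CPM (log2 0.48 ± 0.05), Elovl6 by 0.28 and Scd1 by 0.24. With offsets for GC content and length, chosen after seeing the data, 26 genes were higher and 1 was lower.

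At 120 h, 20 genes were higher in Activin A gastruloids and 2 were lower, against 41.9% called over all genes, 20.3% higher and 21.6% lower. Without the first wild-type Activin A library at 120 h the number called was 14. The median over the 29 genes was 0.21, against -0.01 over all genes. At both times, in libraries that they do not share, 18 genes rose, against 10.5% of all genes. Of these 18, Srebf2 lost its direction at 120 h with GC and length offsets (log2 0.17 by the main scaling and -0.08 with the offsets). Insig1 and Stard4 rose most, by 0.72 ± 0.05 and 0.70 ± 0.06. Insig1 was at 131 and 136 CPM in Chiron and 233 and 220 in Activin A gastruloids, and Stard4 at 70.6 and 67.9 against 116 and 118. Srebf1 rose by 0.42 ± 0.05, from 149 and 159 to 215 and 211 CPM, and Lss by 0.41 ± 0.05. Srebf2 had 318 and 293 against 361 and 352 CPM. Acat2, the cytosolic thiolase at the start of the pathway, and Lbr, a second sterol C14 reductase and a lamin B receptor, fell by 0.21 and 0.22.

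**Figure D2:**
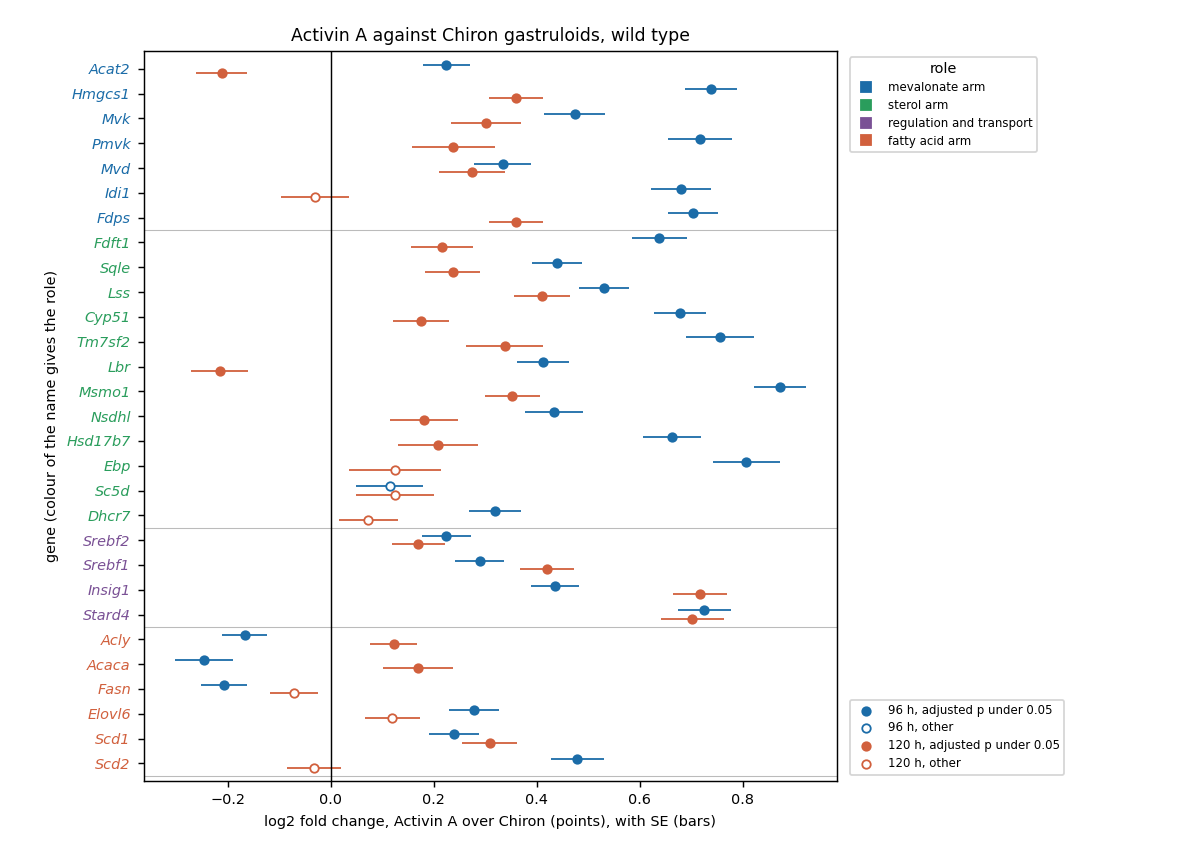
Log2 fold change of Activin A over Chiron wild-type gastruloids (horizontal axis, with SE) for each of the 29 genes (vertical axis), at 96 h in blue and at 120 h in orange; filled points passed an adjusted p of 0.05. At 96 h all mevalonate and sterol genes lie to the right of 0, and for most of them the 120 h point lies closer to 0, while Insig1 and Srebf1 have the larger value at 120 h; Srebf2 at 120 h changes sign with GC and length offsets.

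The difference between the 2 times was tested as an interaction. The treatment effect was smaller or more negative at 120 h for 16 genes and larger or more positive for 3, against 39.6% of all genes called, 21.7% positive and 18% negative. Idi1 had 50.9 and 49.6 CPM in Chiron against 81.3 and 86.5 in Activin A gastruloids at 96 h, and 86.4 and 82.1 against 88.2 and 82.9 at 120 h, where the groups overlapped. Its effect differed by -0.71 ± 0.09 on the log2 scale. The effect on Lbr differed by -0.63, that on Msmo1 by -0.52 and that on Scd2 by -0.51. The positive differences were those of Insig1, Acly and Acaca. Markers of other cell types moved with the treatment. At 96 h the 6 definitive endoderm markers summed to 552 to 614 CPM in Activin A and 117 to 156 in Chiron gastruloids, with 5 of 6 higher and 1 lower. The pluripotency sum was 1035 to 1059 against 204 to 276 CPM, with 2 of 6 higher and 2 lower, and the 5 presomitic mesoderm markers summed to 1810 to 1896 against 1095 to 1112 CPM, with 1 higher and 4 lower. All 5 neural markers were lower (32.2 to 34.7 against 49.4 to 58.2 CPM in sum). At 120 h all 6 definitive endoderm markers were higher (388 to 407 against 59.2 to 62.6 CPM). The pluripotency sum was then lower in Activin A gastruloids (75.2 to 76.0 against 267 to 278 CPM), with 5 of 6 markers lower. Of the presomitic mesoderm markers 1 was higher and 3 lower (601 to 626 against 724 to 746 CPM), and of the neural ones 2 were higher and 1 lower. Of the neural markers 1 was at 0 throughout the Activin A libraries at 96 h, and no gene of the other 3 lists was at 0 throughout a group. Their part in the result was not tested.

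The second comparison asks what loss of Hox function changes, and it could be made in 4 settings. In mES cells 12 of the 29 genes were higher in Hox-/- cells and 1, Mvd, the mevalonate diphosphate decarboxylase, was lower, against 23.2% called over all genes, 12.4% higher and 10.8% lower. The median was 0.12, against 0.00 over all genes. All 6 fatty acid genes rose, by 0.11 to 0.25 on the log2 scale, and so did Acat2, Fdps, Cyp51, Lbr, Nsdhl and Hsd17b7. Scd1 had 303 and 297 CPM in wild type and 349 and 367 in Hox-/- (0.25 ± 0.04, adjusted p = 4.46e-05). Elovl6 had 262 and 266 against 300 and 306 CPM, and Acaca 69.1 and 69.3 against 79.6 and 84.3. The 2 genotypes did not overlap for any of these 3 genes. Srebf2 was at 277 and 267 CPM in wild type and 302 and 279 in Hox-/- (log2 0.09 ± 0.05, adjusted p = 0.148). Srebf1 was at 107 and 109 against 103 and 92.2 CPM (-0.15 ± 0.06, adjusted p = 0.0636), and Insig1 at 84.1 and 78.2 against 86.4 and 93.4 CPM (0.14 ± 0.06, adjusted p = 0.0893). These small changes depended on the test: DESeq2 called 5 genes, limma on FPKM called 0, and the count was 3 without the first wild-type library and 6 without the second. Hsd17b7 was 0.33 higher by counts and lower by FPKM (-0.12 on the log2 scale with a pseudocount of 1).

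In endoderm cultures 15 genes were higher in Hox-/- cultures and 1, Mvd, was lower, against 46.2% called over all genes, 23.1% in each direction. The median was 0.15, against 0.00 over all genes. Scd2 rose most. Its CPM was 1280, 1371 and 1364 in wild-type and 2198, 2331 and 2254 in Hox-/- cultures, a log2 fold change of 0.77 ± 0.05 (adjusted p = 3.27e-08). Hsd17b7 was at 59.1, 58.1 and 57.3 CPM in wild type and 91.0, 88.3 and 89.7 in Hox-/- (0.63 ± 0.05, adjusted p = 1.79e-07). For both genes every Hox-/- library lay above every wild-type one. Nsdhl, a dehydrogenase that acts with MSMO1, rose by 0.44, Sc5d by 0.43, Cyp51 by 0.42, Hmgcs1 by 0.40 and Insig1 by 0.39. Insig1 was at 56.9, 67.4 and 61.4 CPM against 79.3, 82.7 and 80.6. The transcription factor genes did not pass the test: Srebf2 had 526, 539 and 659 CPM in wild type and 545, 489 and 519 in Hox-/-, and Srebf1 had 134, 134 and 158 against 145, 136 and 150, with overlapping groups in both. Of the fatty acid genes only Scd1 and Scd2 rose, while Acly, Acaca, Fasn and Elovl6 had log2 values from -0.08 to 0.05. In all, 7 genes were higher in Hox-/- in both mES cells and endoderm cultures, which share no library, against 3.87% of all genes tested in both: Acat2, Fdps, Cyp51, Nsdhl, Hsd17b7, Scd1 and Scd2. All 6 pluripotency markers and all 6 definitive endoderm markers of 6 were lower in Hox-/- endoderm cultures. Their summed CPM was 720 to 844 against 209 to 228 for pluripotency and, for the visceral endoderm and liver list, 91.0 to 111 against 15.3 to 21.3, with no marker of these 3 lists at 0. Their part in the result was not tested.

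A joint fit of the mES and endoderm libraries tested whether the genotype effect differed between mES cells and endoderm cultures. It differed for 8 genes, positive for 6 and negative for 2, against 24.1% of all genes called, 11.6% positive and 12.5% negative. The positive genes were Scd2 (0.63), Hmgcs1 (0.42), Mvk, Hsd17b7, Sc5d and Insig1, and the negative ones were Lbr (-0.25) and Elovl6 (-0.25). Without the first wild-type mES library the number was 4, and without the first Hox-/- mES library it was 5. Scaled by total counts alone, 57.1% of the calls were positive in place of 75.0%.

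In Activin A gastruloids at 96 h most called genes were lower in Hox-/-. Of the 29 genes, 14 were lower in Hox-/- gastruloids and 4 were higher, against 38.9% called over all genes, 16.7% lower and 22.2% higher. The median was -0.07, against 0.03 over all genes. Scaled by total counts alone, 11.1% of the calls were higher in place of 22.2%. Acly fell most. It had 686 and 690 CPM in wild-type and 431 and 459 in Hox-/- gastruloids, a log2 fold change of -0.58 ± 0.04 (adjusted p = 2.91e-18). Mvk, the mevalonate kinase, fell from 56.0 and 54.9 to 43.1 and 41.7 CPM (-0.33 ± 0.05), and Fasn from 465 and 450 to 358 and 384 CPM (-0.25 ± 0.04). These groups did not overlap. Acaca fell by 0.30, Pmvk by 0.29, Mvd by 0.26, Scd1 by 0.22 and Tm7sf2 by 0.21. Srebf2 fell by 0.20 ± 0.04, from 415 and 401 to 341 and 345 CPM. Srebf1 was at 192 and 195 against 192 and 181 CPM (0.01 ± 0.04, adjusted p = 0.932). The 4 genes that rose were Scd2 (0.26), Insig1 (0.22, from 231 and 237 to 269 and 256 CPM), Hsd17b7 (0.14) and Msmo1 (0.12).

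At 120 h, 15 genes were higher in Hox-/- Activin A gastruloids and 5 were lower, against 50.4% called over all genes, 24.9% higher and 25.5% lower. The median was 0.15, against -0.02 over all genes. Without the second wild-type library the number called was 13. Higher genes made up 75.0% of the calls, 56.2% when scaled by total counts alone and 85.7% with GC and length offsets. By total counts alone the median over the 29 genes was 0.03, against -0.13 over all genes. Scd2 rose by 0.48 ± 0.04 (adjusted p = 2.72e-15), from 1723 and 1655 to 2153 and 2205 CPM. Fasn rose by 0.40 ± 0.04, from 453 and 445 to 557 and 536 CPM, and Acaca by 0.36 ± 0.06, from 78.6 and 83.7 to 100 and 92.3 CPM. In all 3 the Hox-/- libraries lay above the wild-type ones. Fdft1 rose by 0.32, Nsdhl by 0.31, Cyp51 by 0.28, Fdps by 0.27, Hmgcs1 by 0.25, Lss by 0.23 and Srebf2 by 0.19. The genes that fell were Tm7sf2 (-0.40), Ebp (-0.39), Mvk (-0.16, but 0.01 with GC and length offsets), Stard4 (-0.13) and Msmo1 (-0.11). Srebf2 was at 361 and 352 CPM in wild type and 386 and 368 in Hox-/-, Srebf1 at 215 and 211 against 197 and 201, and Insig1 at 233 and 220 against 216 and 209. The last 2 genes did not pass the test (log2 0.01 and 0.02, after TMM scaling).

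**Figure D3:**
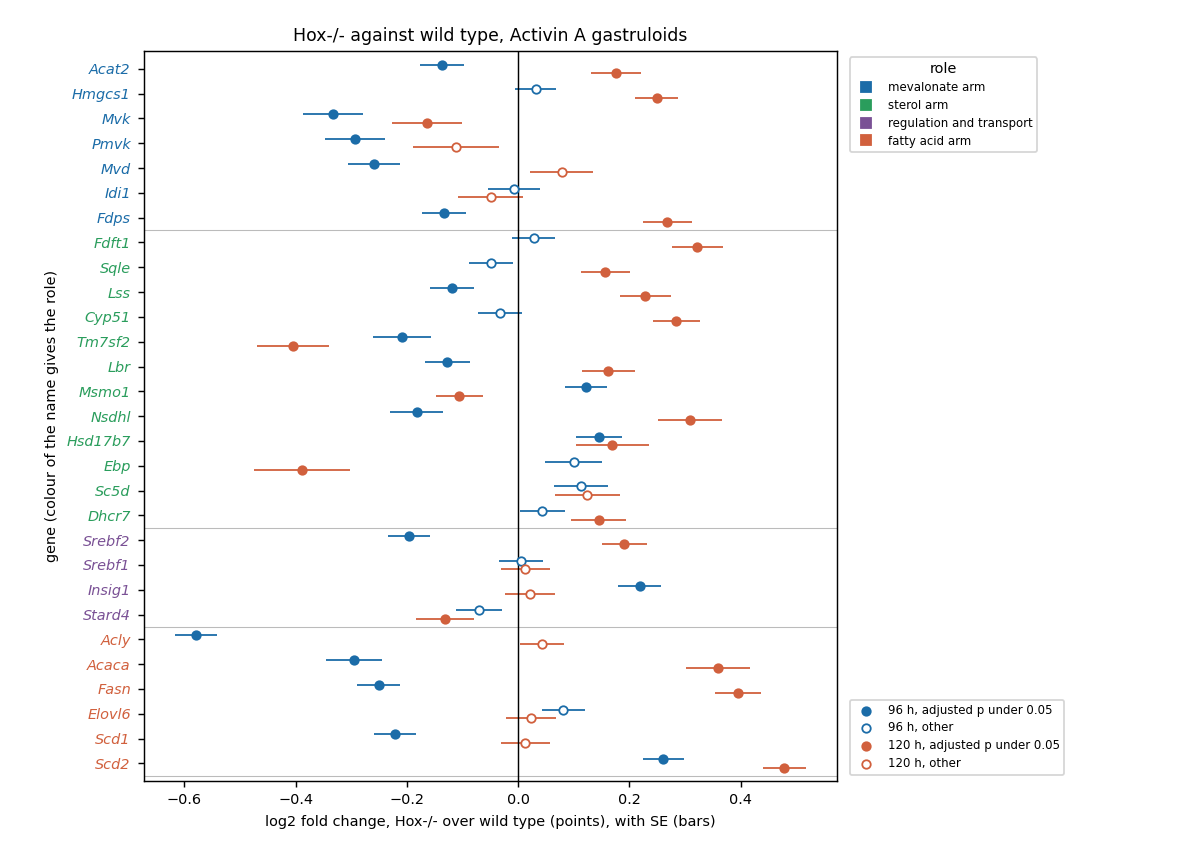
Log2 fold change of Hox-/- over wild-type Activin A gastruloids (horizontal axis, with SE) for each of the 29 genes (vertical axis), at 96 h in blue and at 120 h in orange; filled points passed an adjusted p of 0.05. Fasn, Acaca, Srebf2, Lss, Lbr, Nsdhl, Fdps and Acat2 have a filled point on each side of 0. For these genes the 96 h point is lower and the 120 h point higher. Scd2 and Hsd17b7 lie to the right and Tm7sf2 and Mvk to the left at both times. Mvk at 120 h changes sign with GC and length offsets. The CPM of Lbr and of Hsd17b7 overlapped between the genotypes at 120 h.

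There were 8 genes that were lower in Hox-/- gastruloids at 96 h and higher at 120 h: Acat2, Fdps, Lss, Lbr, Nsdhl, Srebf2, Acaca and Fasn. This pattern was called in 2.57% of all genes tested. Msmo1 did the opposite, as did 3.18% of all genes. For Lbr at 120 h the genotypes overlapped, with 170 and 188 CPM in wild type and 185 and 185 in Hox-/-. The 120 h calls behind the pattern depended in part on the scaling. By total counts alone, 9 of the 29 genes were higher and 7 lower at 120 h, in place of 15 and 5. Hsd17b7 and Scd2 were the 2 genes higher at both times, and Mvk and Tm7sf2 the 2 lower at both, against 9.13% and 8.77% of all genes. The genotype effect differed between the times for 19 genes, positive for 16 and negative for 3, against 38.9% of all genes called, 18.7% positive and 20.2% negative. The differences were 0.65 ± 0.06 for Fasn, 0.62 ± 0.05 for Acly, 0.65 ± 0.08 for Acaca and 0.39 ± 0.06 for Srebf2. The 3 negative genes were Msmo1, Ebp and Insig1. Over the 4 settings Hsd17b7 and Scd2 were the 2 genes called higher in Hox-/- in each, against 1.58% of the genes tested in all 4. However, Hsd17b7 was lower by FPKM in mES cells. Its CPM also overlapped between the genotypes at 120 h, with 57.6 and 61.9 in wild type and 58.4 and 65.9 in Hox-/-. At 96 h, 6 of 6 definitive endoderm markers were lower in Hox-/- gastruloids (56.1 to 65.6 CPM in sum against 552 to 614), and at 120 h 5 of 6 were (163 to 164 against 388 to 407), with none at 0. Other marker lists moved as well. Of the pluripotency markers 5 of 6 were lower at 96 h (883 to 902 against 1035 to 1059 CPM) and 4 lower and 1 higher at 120 h (19.5 to 20.8 against 75.2 to 76.0). At 120 h all 5 neural markers were lower (at most 23.1 against at least 91.2 CPM in sum, median log2 -4.16) and 5 of 6 visceral endoderm and liver markers were (1.81 to 2.24 against 14.9 to 17.6 CPM), with 2 of the latter at 0 in Hox-/-. Of the 5 presomitic mesoderm markers 4 were higher and 1 lower at 120 h (653 to 664 against 601 to 626 CPM in sum), and 2 were higher and 2 lower at 96 h. Their part in the result was not tested.

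The third comparison follows gastruloids from 96 h to 120 h. In wild-type Activin A gastruloids 19 genes fell and 2 rose, against 74.9% called over all genes, 37.8% lower and 37.2% higher. The median was -0.21, against 0.00 over all genes. By total counts alone, 28.6% of the calls were higher in place of 9.52%. In Hox-/- Activin A gastruloids 12 fell and 11 rose, against 72.4% called, 37.6% lower and 34.9% higher. In Chiron gastruloids 10 fell and 6 rose, against 61.7% called, 33.2% lower and 28.5% higher. There the share of higher calls was 37.5%, 55.0% by total counts alone and 50.0% with GC and length offsets. Time goes with library depth in all 3 series, and the 2 cannot be told apart. Cell type markers moved with time too. In wild-type Activin A gastruloids all 5 neural markers rose (32.2 to 34.7 CPM in sum at 96 h and 91.2 to 93.9 at 120 h, median log2 4.25), 5 of 6 pluripotency markers fell (1035 to 1059 and 75.2 to 76.0 CPM), and of the 5 presomitic mesoderm markers 3 fell and 1 rose (1810 to 1896 and 601 to 626 CPM). In Hox-/- Activin A gastruloids 4 pluripotency markers fell and 1 rose (883 to 902 and 19.5 to 20.8 CPM), 1 neural marker fell, and 3 presomitic mesoderm markers rose and 2 fell, while the sum of the last list went from 2257 to 2303 CPM at 96 h to 653 to 664 at 120 h. In Chiron gastruloids 3 pluripotency markers fell and 2 rose, 4 presomitic mesoderm markers fell and 1 rose (1095 to 1112 and 724 to 746 CPM), and 3 neural markers rose and 1 fell. Their part in the result was not tested.

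Hsd17b7 fell most in each series. Its CPM went from 162 and 162 at 96 h to 61.9 and 57.6 at 120 h in wild-type Activin A gastruloids (log2 -1.51 ± 0.05, adjusted p = 1.55e-29). It went from 176 and 169 to 65.9 and 58.4 in Hox-/- ones (-1.49 ± 0.05) and from 94.2 and 101 to 46.3 and 54.2 in Chiron gastruloids (-1.08 ± 0.07). In every series both 120 h libraries lay far below both 96 h libraries. Ebp fell by 0.84 in wild-type Activin A gastruloids, from 59.5 and 58.7 to 34.5 and 35.0 CPM, and by 1.33 in Hox-/- ones, from 62.0 and 60.1 to 25.7 and 23.4 CPM. In Chiron gastruloids Ebp had a log2 value of -0.18 ± 0.08 (adjusted p = 0.0541). Scd2, Scd1, Insig1 and Stard4 also fell in all 3 series, as did 18.6% of all genes: Scd2 by 0.94, 0.72 and 0.44, and Scd1 by 0.69, 0.45 and 0.78 in wild-type Activin A, Hox-/- Activin A and Chiron gastruloids. Mvk was the 1 gene that rose in all 3, by 0.27, 0.43 and 0.42, as did 15.5% of all genes. The genes that fell in wild-type and rose in Hox-/- Activin A gastruloids were 5, Sqle, Lss, Srebf2, Acly and Fasn, against 2.56% of all genes. All 5 were among the positive genes of the genotype by time test. Fasn had log2 values of -0.10 and 0.54, and Acly of -0.47 and 0.15. Srebf2 had -0.27 and 0.12, the second of which was -0.15 with GC and length offsets. The wild-type Activin A libraries enter the time, genotype and treatment comparisons alike, so these comparisons are not independent of each other. Idi1, Cyp51, Tm7sf2 and Msmo1 rose with time in Chiron gastruloids by 0.49 to 0.64, and none of them passed the test in wild-type Activin A gastruloids. The difference between the 2 series is the treatment by time test given above, which called all 4.

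**Figure D4:**
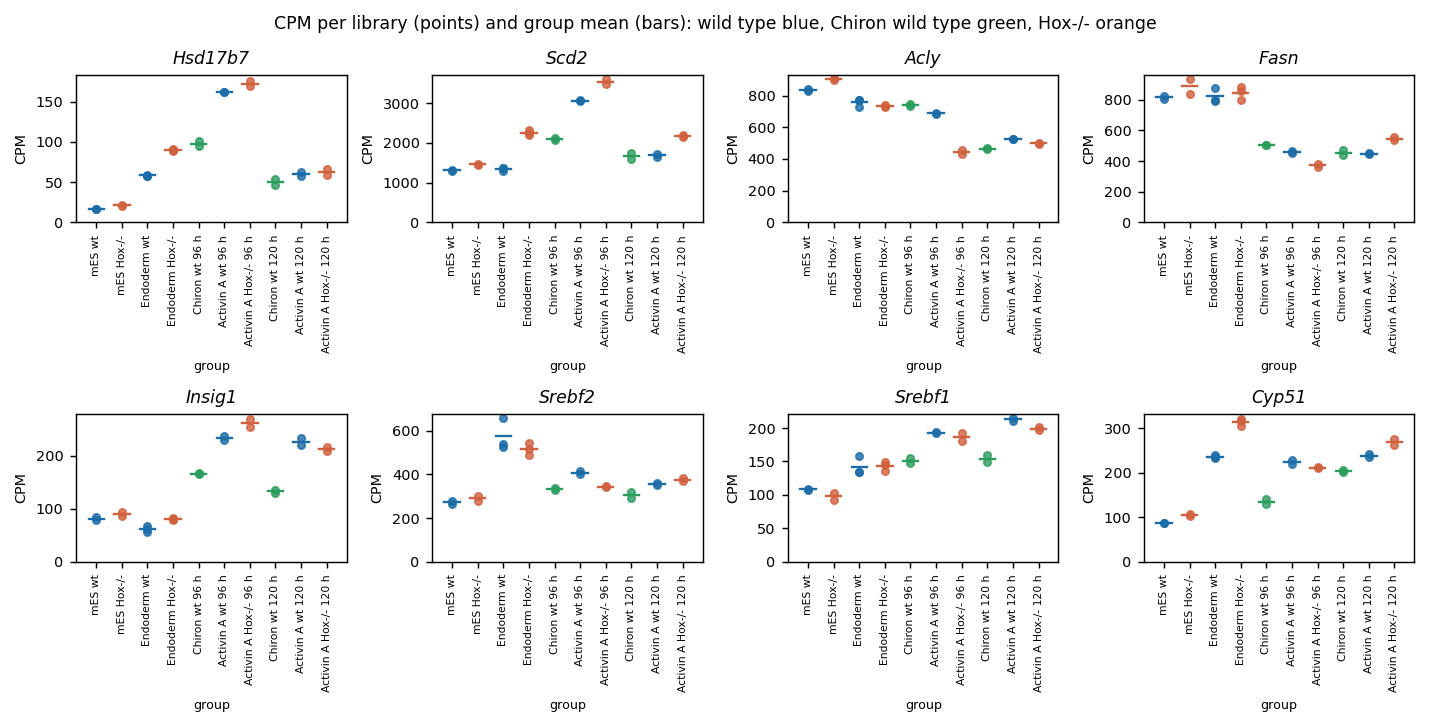
CPM (vertical axes) in each library (points) with the group mean (bars) for 8 of the genes in the 10 groups (horizontal axes); wild-type groups are blue, wild-type Chiron groups green and Hox-/- groups orange. Hsd17b7 runs from 16.5 to 176 CPM and peaks in the Activin A gastruloids at 96 h, Scd2 is higher in Hox-/- than in matched wild-type libraries in all 4 settings, and Acly is lowest at 96 h in Hox-/- Activin A gastruloids.

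The fourth comparison sets endoderm cultures against mES cells. The mES medium held 10% FBS and the endoderm medium 0.2%, so differentiation and medium cannot be told apart. In wild type 17 genes were higher in endoderm cultures and 6 lower, against 79.9% called over all genes, 41.6% higher and 38.3% lower. The median was 0.32, against 0.07 over all genes. In Hox-/- cells 18 were higher and 6 lower, against 80.6% called, 42.7% higher and 37.9% lower, with medians of 0.47 and 0.10. With GC and length offsets the share of higher calls fell to 52.0% from 73.9% in wild type and to 56.0% from 75.0% in Hox-/-, and the median over the 29 genes fell to 0.03 in wild type and 0.02 in Hox-/-. These offsets moved the median of all genes by -0.22 and -0.18. Total counts alone moved it by 0.12 in wild type.

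The sterol arm held the largest changes. Hsd17b7 rose from 16.5 and 16.7 CPM in wild-type mES cells to 57.3 to 59.1 in endoderm cultures, a log2 fold change of 1.69 ± 0.07 (adjusted p = 1.42e-14), and from 20.2 and 21.8 to 88.3 to 91.0 in Hox-/- (2.02 ± 0.07). Cyp51 rose from 86.4 and 86.0 to between 232 and 240 CPM in wild type (1.33 ± 0.05) and from 103 and 106 to between 305 and 320 in Hox-/- (1.5 ± 0.05). Sc5d rose by 1.19 and 1.56, and Dhcr7, a final enzyme of the pathway, by 1.02 and 1.00. For these genes no endoderm library overlapped any mES library of its genotype. Nsdhl rose by 0.91 in wild type and by 1.09 in Hox-/-, Mvd by 0.85 and 0.95, Fdps by 0.78 and 0.70, and Acat2 by 0.53 and 0.56. Hmgcs1 rose by 0.32 and 0.74. The 3 enzymes of the isoprenoid isomerase and squalene steps had values near 0 in both genotypes: Idi1 (-0.12 and -0.03), Fdft1 (-0.13, which passed the test, and -0.07) and Sqle (-0.03 and 0.06). Of the 12 sterol genes, 9 rose and 2, Ebp and Fdft1, fell in wild type. Ebp fell by 0.61 and by 0.58 in Hox-/-, and in wild type its CPM went from 42.8 and 43.3 to between 27.9 and 33.7.

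Of the regulators, Srebf2 rose from 277 and 267 to 526, 539 and 659 CPM in wild type (0.96 ± 0.08) and from 302 and 279 to 545, 489 and 519 in Hox-/- (0.75 ± 0.08, but -0.02 with GC and length offsets). Srebf1 had 107 and 109 against 134, 134 and 158 CPM in wild type (0.28 ± 0.07) and 103 and 92.2 against 145, 136 and 150 in Hox-/- (0.47 ± 0.07), and the sign turned with the offsets (-0.36 and -0.23). Insig1 fell by 0.51 ± 0.07 in wild type, from 84.1 and 78.2 to 56.9, 67.4 and 61.4 CPM, and by 0.23 ± 0.07 in Hox-/-. Stard4 rose by 0.44 and 0.46. In the fatty acid arm Acly fell by 0.26 and 0.38, Elovl6 by 0.39 and 0.64, and Scd1 by 0.24 and 0.28. Acaca rose by 0.62 and 0.45, but not with the offsets (-0.01 and -0.16). Scd2 rose only in Hox-/- cells (0.55 ± 0.05, against -0.08 ± 0.05 in wild type), and this difference is the interaction of 0.63 given above. In all, 16 genes were higher and 5 lower in endoderm cultures in both genotypes, against 36.1% and 33.5% of all genes tested.

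**Figure D5:**
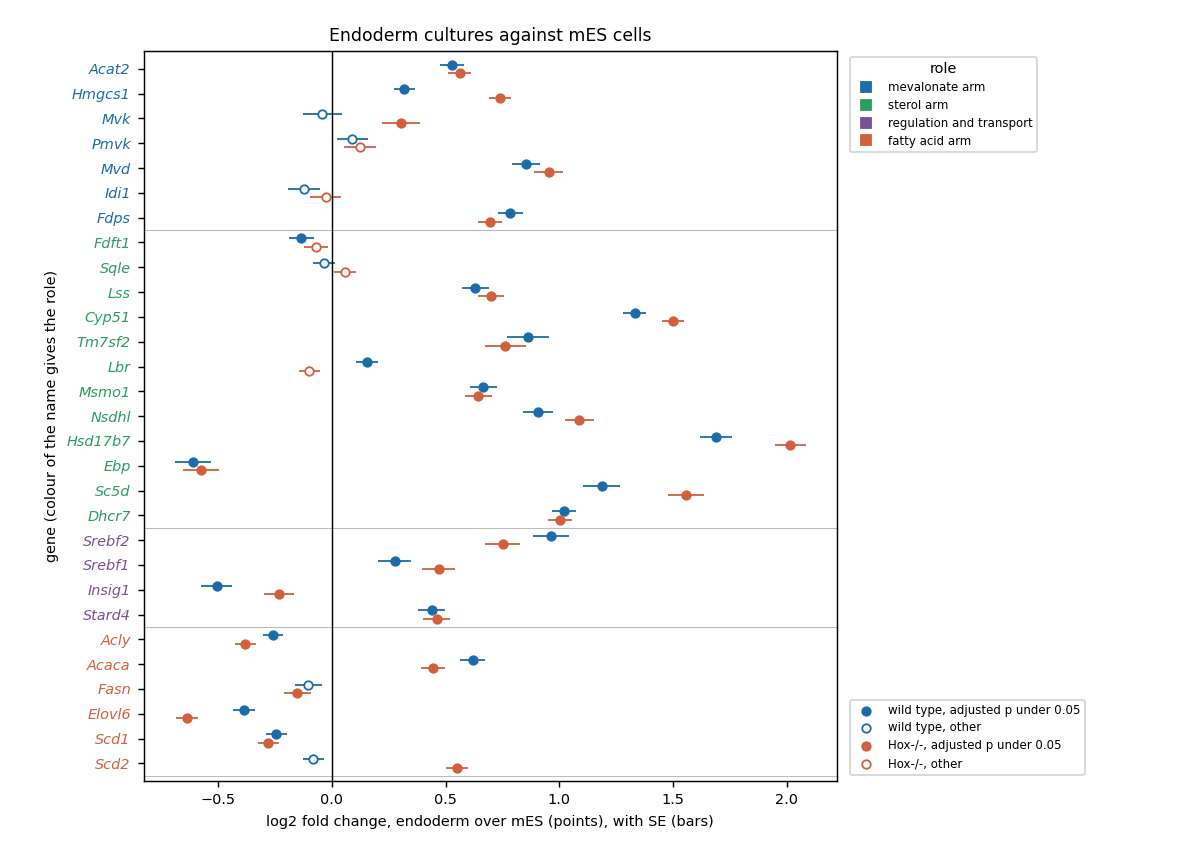
Log2 fold change of endoderm cultures over mES cells (horizontal axis, with SE) for each of the 29 genes (vertical axis), in wild type in blue and Hox-/- in orange; filled points passed an adjusted p of 0.05. Hsd17b7, Cyp51, Sc5d and Dhcr7 lie at 1.00 or above in both genotypes, Ebp lies to the left, and Scd2 has its 2 points far apart; with GC and length offsets Srebf1 and Acaca change sign in both genotypes and Srebf2 in Hox-/-.

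Other genes of lipid metabolism were counted for comparison in 6 lists. In the treatment comparison at 96 h, 6 of 8 tested fatty acid oxidation genes were higher in Activin A gastruloids and 1 lower, where 31.3% of all genes were higher and 30.2% lower, led by Hadhb (1.19 ± 0.06) and Acadm (1.05 ± 0.07), both enzymes of the mitochondrial cycle. Of 10 sterol transport and storage genes, 6 were higher and 3 lower, with Soat1, which esterifies cholesterol, at 1.3 ± 0.05 and Abca1, which exports it, at -3.04 ± 0.31. Of 10 genes that regulate sterol and SREBP, 2 were higher and 3 lower. Scap, which escorts SREBP out of the endoplasmic reticulum, fell by 0.61 ± 0.06. In the same comparison 25 of the 29 genes were higher, and a link between these results was not tested. Of 16 genes of fatty acid supply and modification 9 were higher and 1 lower, of 5 glycerolipid genes 3 and 2, and of 6 isoprenoid side branch genes 0 and 3. The same shares of all genes stand beside each of these counts.

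In the genotype comparisons Scap rose in Hox-/- endoderm cultures (0.47 ± 0.06) and in Hox-/- Activin A gastruloids at 96 h (0.46 ± 0.05) and 120 h (0.54 ± 0.06). Acss2, which makes acetyl-CoA from acetate, rose in Hox-/- mES cells (0.54 ± 0.09) and fell in Hox-/- endoderm cultures (-1.05 ± 0.11) and gastruloids (-0.81 ± 0.13 and -1.66 ± 0.24). Its genotype effect differed between mES cells and endoderm cultures by -1.56 ± 0.14. Of the sterol transport genes, 6 of 10 were lower and 1 higher in Hox-/- endoderm cultures and again in Activin A gastruloids at 120 h, against 23.1% and 25.5% of all genes lower. In the latter Scarb1, a lipoprotein receptor, fell by 1.24 ± 0.10. From 96 h to 120 h, 6 of 8 fatty acid oxidation genes fell in wild-type Activin A gastruloids and 1 rose, 6 fell in Hox-/- ones and 5 in Chiron gastruloids, against 37.8%, 37.6% and 33.2% of all genes lower. Of the 16 genes of fatty acid supply and modification 13, 11 and 10 fell in the same series. Hadhb fell by 2.28 ± 0.05, 2.68 ± 0.05 and 0.59 ± 0.07 in these series. In the differentiation comparison of wild-type cells Vldlr, a lipoprotein receptor, rose by 5.89 ± 0.15, Soat1 by 4.0 ± 0.08 and Lipa, the lysosomal cholesteryl ester lipase, by 3.09 ± 0.14, while Abca1 fell by 4.76 ± 0.11.

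Several of the 29 genes share exonic bases with another gene model. These are Hmgcs1, Idi1, Fdft1, Lss, Cyp51, Lbr, Srebf1 and Elovl6, which have an antisense neighbour, and Fdps, Tm7sf2 and Scd2, which overlap a model on the same strand. The kit marks strand, but whether the counting used it is not given in the sources used here, so reads in these parts are uncertain. The longest antisense overlap was 774 bases, between Fdft1 and Ctsb. Scd1 and Scd2 are related genes, and whether their reads were split between them was not tested.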

How the data were processed

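Poly(A) RNA from 22 libraries was sequenced from stranded libraries, per the labels' protocols. The submitters' processing notes name cutadapt 1.16, STAR 2.7.7a, Cufflinks 2.2.1 and the mm10 build, with no settings; the counting tool and its strand setting are not given in the sources used here. The authors deposited raw gene counts, with no normalization, and FPKM values scaled by transcript length and library total. The 4 wild-type Activin A libraries stand in both gastruloid tables with identical counts. Gene models were taken from GENCODE M21 and promoters from RefSeq (GRCm38.p6).

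Counts were fitted over all genes with edgeR 4.0.16 (R 4.3.3): filterByExpr, TMM scaling, 1 coefficient per group, quasi-likelihood test, Benjamini-Hochberg adjustment, call at an adjusted p under 0.05. mES and endoderm tables were fitted alone for genotype and jointly for differentiation. In all, 14 contrasts were tested. The SE beside a log2 fold change is not a separate estimate. It is the size of the change divided by the square root of the quasi-likelihood test's F statistic. CPM is scaled by library totals alone, so CPM ratios can differ from the TMM-scaled log2 fold changes. The statistics were tested on simulated counts. Alternatives were DESeq2 1.42.0, RLE factors, no low-count filter, a replicate block, limma 3.58.1 on log2(FPKM + 1) and log2(FPKM + 0.1) with FPKM of at least 1, and each library left out. Scaling by total counts only, and offsets for GC content or length by smooth fits, were chosen after seeing the data.

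The 29 genes, 6 lipid lists and 7 marker lists were chosen with earlier results of these data known. All 29 genes may be named; library values were to be given for called 2-fold changes without overlap and for Srebf1, Srebf2 and Insig1, and other genes' library values were chosen after their values were seen. From the lipid lists, up to 3 called genes per direction and comparison, by p, may be named. Idi2 and Ppara were too low to test in any comparison. Of the other marker lists, the neural sum was 21.0 to 331 CPM over all libraries and was highest in mES cells (302 to 331 CPM). The endothelial and blood sum was 3.26 to 185 CPM, also highest in mES cells (121 to 185 CPM). The cardiac sum was 1.63 to 122 CPM.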

Additional observations from a re-analysis of the deposited data

Results flagged for a closer look

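Differences between effects were tested as interactions with edgeR. Of the 29 genes, 19 had a genotype effect in Activin A gastruloids that was not the same at 96 h and 120 h, where 38.9% of all genes were called. The 4 with the smallest p were Fasn, whose effect was 0.65 higher on the log2 scale at 120 h, Acly (0.62), Acaca (0.65) and Srebf2 (0.39).

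The treatment effect in wild type differed between the times for 19 genes, against 39.6% of all genes. The 4 with the smallest p all had a smaller or more negative effect at 120 h: Lbr (-0.63), Idi1 (-0.71), Msmo1 (-0.52) and Scd2 (-0.51). Lbr was called higher with Activin A at 96 h and lower at 120 h.

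The genotype effect differed between mES cells and endoderm cultures for 8 genes, a share near the 24.1% of all genes called. Scd2 (0.63) and Hmgcs1 (0.42) had the larger effect in endoderm cultures, and Lbr (-0.25) and Elovl6 (-0.25) had the more negative one.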

How the results depend on the processing

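The number of genes called stayed within 1.5 times in every comparison with RLE factors, no low-count filter, the replicate block, GC and length offsets, and total counts alone. Exceptions came from other tests and from libraries left out. In mES cells 13 genes were called between genotypes, DESeq2 called 5, and limma on FPKM, with either pseudocount, called 0. For the genotype by differentiation test DESeq2 called 5 in place of 8. Leaving out each library in turn gave 3 to 16 calls for the mES genotype, 11 to 14 for endoderm, 14 to 17 and 13 to 17 for Activin A gastruloids at 96 h and 120 h, 27 to 29 and 14 to 18 for treatment, 18 to 20, 23 to 24 and 15 to 19 for time in wild-type Activin A, Hox-/- Activin A and Chiron gastruloids, 21 to 24 and 22 to 24 for differentiation in wild type and Hox-/-, and 18 to 20, 16 to 20 and 4 to 8 for the genotype by time, treatment by time and genotype by differentiation tests. Directions were followed for genes called by the main test, and for Srebf1, Srebf2 and Insig1 whether called or not. Signs changed with no call in either fit 10 times with a library left out and 5 times by total counts alone. They did so 4 times with each limma pseudocount, 1 time with GC and length offsets and 1 time without the low-count filter. Directions turned with a call in at least 1 of the fits in 13 further cases, whose cause was not tested. In 11 of them the gene had been called by the main test, and in the other two, Srebf1 over time in Activin A gastruloids, it was called with the offsets alone. In mES cells Hsd17b7 was -0.12 and -0.14 by limma with pseudocounts of 1 and 0.1. The others came with GC and length offsets: Mvk 0.014 for genotype at 120 h, Srebf2 -0.076 for treatment at 120 h, Srebf1 -0.18 for time in wild-type Activin A, Hmgcs1 0.010, Srebf2 -0.15 and Srebf1 -0.17 for time in Hox-/-, Srebf1 -0.36 and Acaca -0.0071 for differentiation in wild type, and Srebf2 -0.017, Srebf1 -0.23 and Acaca -0.16 in Hox-/-.

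With the replicate block the mES genotype comparison called 17 genes in place of 13, and every other comparison had the same number of calls. In the labels, same-numbered libraries share only a number. Their deviations correlated by 0.14 in mES cells, by -0.24, 0.23 and 0.02 in endoderm cultures, and by -0.08 to 0.09 in gastruloids. Between mES cells and endoderm cultures, fitted jointly, the correlations ran from -0.27 to 0.28. FPKM fits were not run across the mES and endoderm tables. The lowest count of any of these genes in a library was 186.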
